A study of Mus musculus with 4 samples.

Results

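The genes described here are 9 markers of the melanocyte, the pigment cell of the skin, namely Mitf, Tyr, Tyrp1, Dct, Pmel, Mlana, Kit, Sox10 and Ednrb. They were chosen by name, and all 9 were among the 24453 gene symbols of the count tables. The RNA came from newborn back skin at postnatal day 0, from cells sorted for EpCAM, Sca1 and a high level of α6-integrin, which selects progenitor-rich epidermis from between the hair follicles. The mutant genotype was Ring1a-/- Ring1b-/I53A (2 libraries, called I53A here), and the other genotype was given only as control (2 libraries, called CTL). Mutant cells lacked Ring1a (gene Ring1) and carried a null Ring1b allele (gene Rnf2) over the I53A allele, whose product cannot ubiquitinate histone H2A. The inactive allele, the null allele and the absence of Ring1a cannot be told apart in this comparison. How many animals gave a library, and whether replicates were separate animals, is not stated, so p-values measure the spread between these libraries.

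Melanocytes arise from the neural crest and settle in the epidermis and in growing hair follicles, where they make melanin in organelles called melanosomes and hand these to keratinocytes. SOX10 switches on the gene of MITF, the master transcription factor of the lineage, and MITF in turn switches on the melanin enzymes and the proteins of the melanosome. The receptors KIT and EDNRB receive KIT ligand and endothelin 3, which carry the cells through migration and keep them alive. Few of these genes belong to melanocytes alone. Kit also marks mast cells, Sox10 marks Schwann cells and Ednrb is active in endothelial cells.

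Total counts were 15966412 and 21543385 in I53A replicates 1 and 2, and 17010432 and 15505018 in CTL replicates 1 and 2. Levels are given in CPM, the share of a library's scaled total that a gene's counts make up. Ring1 had 2.54 and 2.91 CPM in I53A and 24.2 and 33.2 CPM in CTL, so the targeted gene followed the labels (log2 fold change -3.38 ± 0.31 SE, edgeR quasi-likelihood test, adjusted p = 0.000172). Rnf2 had 58.8 and 59.0 CPM in I53A and 58.5 and 45.8 CPM in CTL (log2 fold change 0.18 ± 0.17 SE, adjusted p = 0.681). Its gene count showed no drop in I53A and does not read the substituted base, so it checks neither Rnf2 allele. By Xist and Ddx3y counts, I53A replicate 1 came from male tissue (173 and 1868 counts) and I53A replicate 2 from female tissue (136092 and 2 counts), and both CTL libraries were female. Sex and replicate cannot be told apart within the I53A pair. Transcripts of the sorted cell type were abundant. Krt5 and Krt14, the keratins of basal cells, together held 15970 and 13980 CPM in I53A libraries and 20730 and 24610 CPM in CTL libraries.

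Promoters of the tyrosinase family and of Mitf are shown here because the levels of these enzymes and of the factor known to drive them are set side by side below. The promoter table from RefSeq (GRCm38.p6) held 6 of the 9 members, with 9 start sites among them, 3 of which belonged to Mitf. Each line gives the 250 bases before the annotated start, 5′ to 3′ on the strand of the gene. Capitals mark the letters TCATGTG, the core of the M-box that MITF is known to bind, and TGACGTCA, the cyclic AMP response element known to be bound by CREB, each searched on both strands.
Tyr, chr7:87493513-87493762, minus strand: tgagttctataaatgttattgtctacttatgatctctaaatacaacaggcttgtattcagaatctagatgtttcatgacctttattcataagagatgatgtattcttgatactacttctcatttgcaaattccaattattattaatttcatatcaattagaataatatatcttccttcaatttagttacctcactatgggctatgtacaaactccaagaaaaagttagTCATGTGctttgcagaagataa
Tyrp1, chr4:80833963-80834212, plus strand: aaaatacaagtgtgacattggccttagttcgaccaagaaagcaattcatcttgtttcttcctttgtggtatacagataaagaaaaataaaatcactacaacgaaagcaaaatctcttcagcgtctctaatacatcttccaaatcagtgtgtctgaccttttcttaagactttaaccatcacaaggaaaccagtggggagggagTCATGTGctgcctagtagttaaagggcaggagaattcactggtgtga
Dct, chr14:118052247-118052496, minus strand: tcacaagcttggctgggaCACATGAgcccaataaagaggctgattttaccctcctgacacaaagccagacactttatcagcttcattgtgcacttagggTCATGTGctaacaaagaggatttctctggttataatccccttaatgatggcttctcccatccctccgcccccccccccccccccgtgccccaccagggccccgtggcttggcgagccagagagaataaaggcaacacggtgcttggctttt
Mitf, most 3′ start, chr6:97991533-97991782, plus strand: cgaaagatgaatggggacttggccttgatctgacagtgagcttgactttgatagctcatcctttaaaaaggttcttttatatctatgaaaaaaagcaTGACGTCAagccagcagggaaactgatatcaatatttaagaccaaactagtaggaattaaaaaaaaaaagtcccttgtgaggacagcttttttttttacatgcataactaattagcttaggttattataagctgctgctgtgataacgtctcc

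TCATGTG began 22 bases before the RefSeq start in Tyr and 47 bases before it in Tyrp1. GENCODE, the source of the gene spans given below, places the Tyrp1 start further upstream, so that this match lies inside the GENCODE span of Tyrp1. In Dct it was found 151 bases before the start and, on the opposite strand, 232 bases before it. The windows of Kit, Ednrb and Mitf did not hold these letters. Of 32851 listed promoter windows of the same length, 3.25% held TCATGTG. TGACGTCA was present 153 bases before the most 3′ Mitf start and in 1.55% of all windows. A match in letters is a description and does not show that a factor was bound in these cells. The counts are per gene, so reads from the 3 Mitf starts were not separated.

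Transcripts of all 9 genes were rare in the sorted epidermis. Together they held 37.9 and 36.8 CPM in I53A replicates 1 and 2 and 26.9 and 32.9 CPM in CTL replicates 1 and 2, which was 0.00373% and 0.00388% of the counts in I53A and 0.00266% and 0.0032% in CTL. Both I53A sums lay above both CTL sums. Reads were found for 8 of 9 genes in I53A libraries, with Mlana at 0, and for 9 of 9 genes in CTL libraries. The melanin and melanosome genes Tyr, Tyrp1, Dct, Pmel and Mlana made up 9.72 and 10.5 CPM of the sum in I53A and 12.5 and 13.1 CPM in CTL. For these melanin and melanosome genes together, both I53A libraries lay below both CTL libraries, opposite to the sum of all 9. The rest of the sum of 9 came from the regulators and receptors, which other cell types also use.

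**Figure D1:**
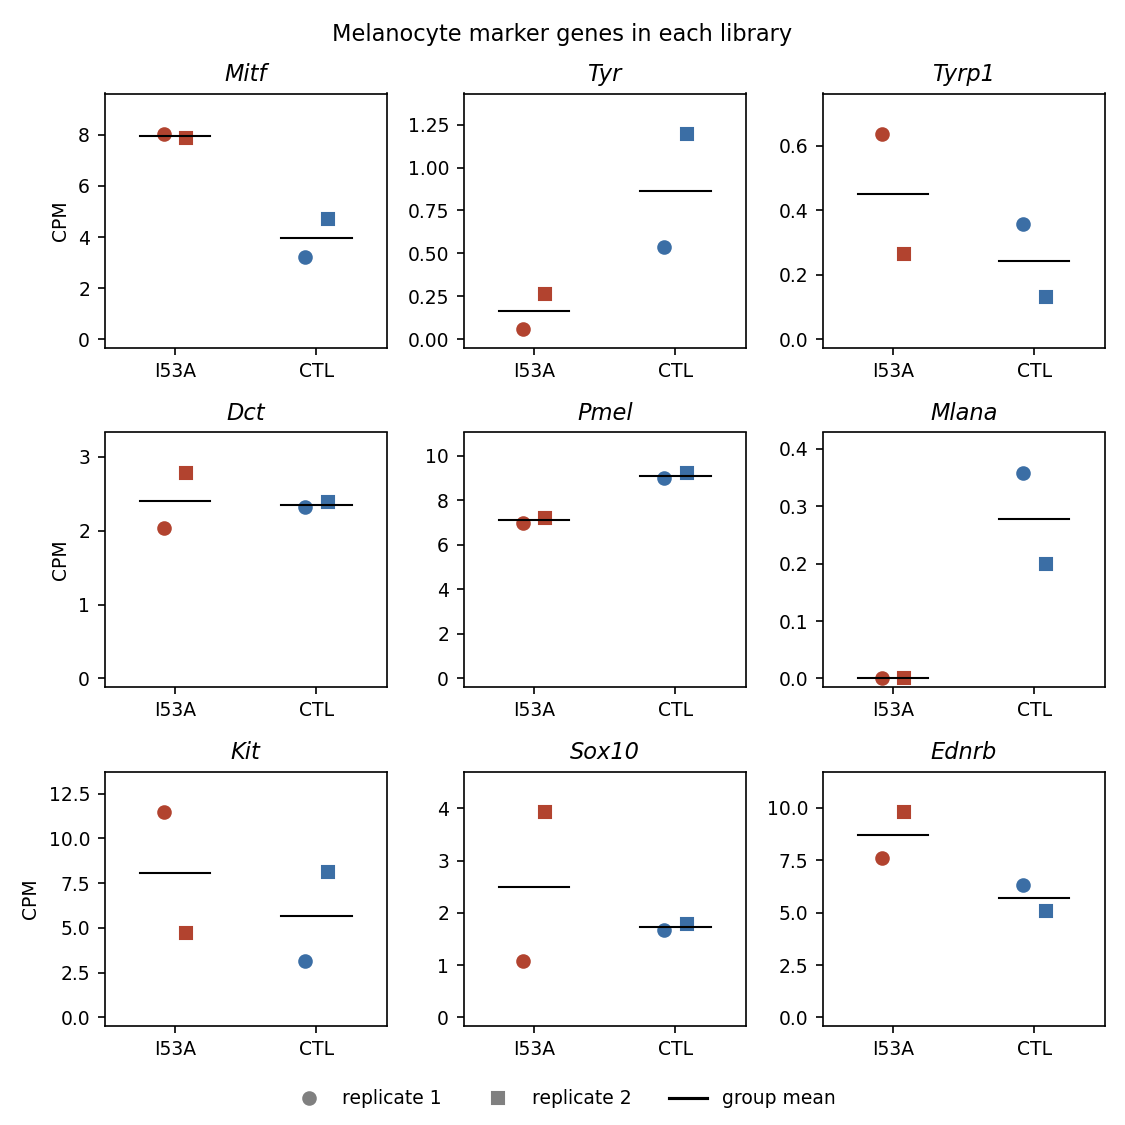
Level of each melanocyte marker gene in CPM (linear axes that differ between panels), with I53A libraries left of CTL libraries, circles for replicate 1, squares for replicate 2 and a line at the group mean. Mitf lies near 8 CPM in both I53A libraries and under 5 CPM in both CTL libraries, while Kit and Sox10 differ widely between replicates.

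Among the 6 genes with enough counts to be tested (Mitf, Dct, Pmel, Kit, Sox10 and Ednrb), none passed the test at a Benjamini-Hochberg adjusted p under 0.05 in the edgeR quasi-likelihood test. Over all 14550 tested genes 6.71% were called, 5.68% as higher and 1.04% as lower in I53A. At an unadjusted p under 0.05 there was 1 member, Mitf, where 18.7% of all tested genes reached that level. DESeq2 called 0 members and 8.59% of all genes, and limma-voom called 0 members and 5.74% of all genes. The median log2 fold change of the 6 genes was 0.55, beside -0.01 over all tested genes. The I53A and CTL libraries did not overlap for 3 of the 6 (Mitf, Pmel and Ednrb), against 47.9% of all tested genes. In bulk RNA, fewer cells of a type and less RNA per cell cannot be told apart.

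Mitf (chromosome 6, 97807052 to 98021349, plus strand, GRCm38), the transcription factor at the top of the pigment programme, stood nearest to the threshold. It had 126 and 179 counts in I53A, or 8.01 and 7.88 CPM, against 54 and 71 counts, or 3.21 and 4.70 CPM, in CTL. Both I53A libraries were above both CTL libraries, with a mean of 7.94 ± 0.0898 CPM in I53A and 3.96 ± 1.05 CPM in CTL (SD, n = 2 each). The log2 fold change was 1.01 ± 0.36 (SE), 2.02-fold, with a 95% interval for this gene alone of 0.22 to 1.81. It did not pass after adjustment over all tested genes (edgeR quasi-likelihood test, adjusted p = 0.143). Its closest relatives, which share the DNA-binding domain, had groups that overlapped. Tfe3 had 46.1 and 53.3 CPM in I53A and 51.1 and 51.3 CPM in CTL, and Tfeb had 4.96 and 5.94 CPM in I53A and 6.31 and 4.50 CPM in CTL.

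Sox10 (chromosome 15, 79154908 to 79165240, minus strand), the neural crest factor that activates Mitf, had 17 and 89 counts in I53A, or 1.08 and 3.92 CPM, and 28 and 27 counts, or 1.67 and 1.79 CPM, in CTL. The CTL libraries lay between the I53A libraries. The fitted log2 fold change of 0.64 ± 0.63 (SE, edgeR adjusted p = 0.678) was 1.19 without I53A replicate 1 and -0.67 without I53A replicate 2, so its direction depended on which mutant library was used. Wherever a library is left out here, its group holds 1 library, which is assumed to vary like the pair of the other group. Over all genes such fits called 1122 and 1131 genes as higher without I53A replicate 1 or 2 and 258 and 292 without CTL replicate 1 or 2, against 826 with all libraries. Pax3, which acts with SOX10 on Mitf, was too rare to be tested, with 9 and 12 counts in I53A and 6 and 9 counts in CTL.

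The enzymes of melanin synthesis had few reads, and none of them was called. Tyr (chromosome 7, 87424771 to 87493512, minus strand) encodes tyrosinase, which catalyses the rate-limiting step, and had 1 and 6 counts in I53A against 9 and 18 counts in CTL. This was 0.0636 and 0.264 CPM in I53A and 0.535 and 1.19 CPM in CTL, with both I53A libraries below both CTL libraries. The ratio of pooled counts was 0.215 (I53A over CTL, 95% exact binomial interval 0.0791 to 0.506, counting error only), and Tyr was under the low-count filter. Tested without that filter, it did not pass (log2 fold change -2.18, edgeR adjusted p = 0.373).

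Tyrp1 (chromosome 4, 80834123 to 80851719, plus strand), a relative that acts late in the synthesis of brown-black eumelanin, had 10 and 6 counts in I53A and 6 and 2 counts in CTL. Its pooled ratio of 1.66 had a counting interval of 0.67 to 4.48, so no difference was detectable at this depth. Dct (chromosome 14, 118012790 to 118052244, minus strand), the dopachrome tautomerase and an early marker of melanoblasts, had 2.03 and 2.77 CPM in I53A and 2.32 and 2.38 CPM in CTL. The libraries overlapped and the log2 fold change was 0.06 ± 0.48 (SE, edgeR adjusted p = 0.971), with an interval for this gene alone of -0.995 to 1.12, wide enough to hold a change of nearly 2-fold either way.

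Pmel (chromosome 10, 128704195 to 128720238, plus strand), which encodes the fibril protein on which melanin is laid down, supplied 71.9% and 68.6% of the scaled reads of the 5 melanin and melanosome genes in I53A and 71.6% and 70.2% in CTL. It had 6.99 and 7.22 CPM in I53A and 8.98 and 9.21 CPM in CTL. The replicates were close and the groups did not overlap, but the log2 fold change of -0.35 ± 0.29 (SE) did not pass (edgeR adjusted p = 0.615). The level of Pmel has a limit in the annotation. Its exons share 105 bases with Dgka and 34 bases with Cdk2, both on the opposite strand, and no source used here states that reads were counted by strand. Dgka had 326 and 287 CPM in I53A and 304 and 282 CPM in CTL, and Cdk2 had 35.7 and 36.8 CPM in I53A and 43.1 and 47.2 CPM in CTL. Reads of these neighbours and of Pmel cannot be told apart over the shared bases.

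Mlana (chromosome 19, 29697824 to 29708634, plus strand), which encodes a small membrane protein of early melanosomes also called MART-1, had no reads in either I53A library and 6 and 3 counts in CTL. The floor of 3 counts per library was 0.191 and 0.132 CPM in I53A replicates 1 and 2. CTL replicate 2 was itself at 3 counts, so no fold is given. Without the low-count filter Mlana did not pass the test (edgeR adjusted p = 0.354).

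Neither receptor gene was called. Ednrb (chromosome 14, 103814625 to 103844402, minus strand), the endothelin receptor of melanoblasts, had 7.63 and 9.77 CPM in I53A against 6.31 and 5.10 CPM in CTL. Both I53A libraries were above both CTL libraries, by a log2 fold change of 0.62 ± 0.33 (SE, edgeR adjusted p = 0.366). Kit (chromosome 5, 75574916 to 75656722, plus strand), the receptor for KIT ligand, had 11.4 and 4.71 CPM in I53A and 3.15 and 8.15 CPM in CTL. Its groups overlapped in part, with I53A replicate 1 highest and CTL replicate 1 lowest. The log2 fold change was 0.48 ± 0.52 (SE, edgeR adjusted p = 0.714), and it was -0.23 without I53A replicate 1, -0.04 without CTL replicate 1 and 1.33 without CTL replicate 2.

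**Figure D2:**
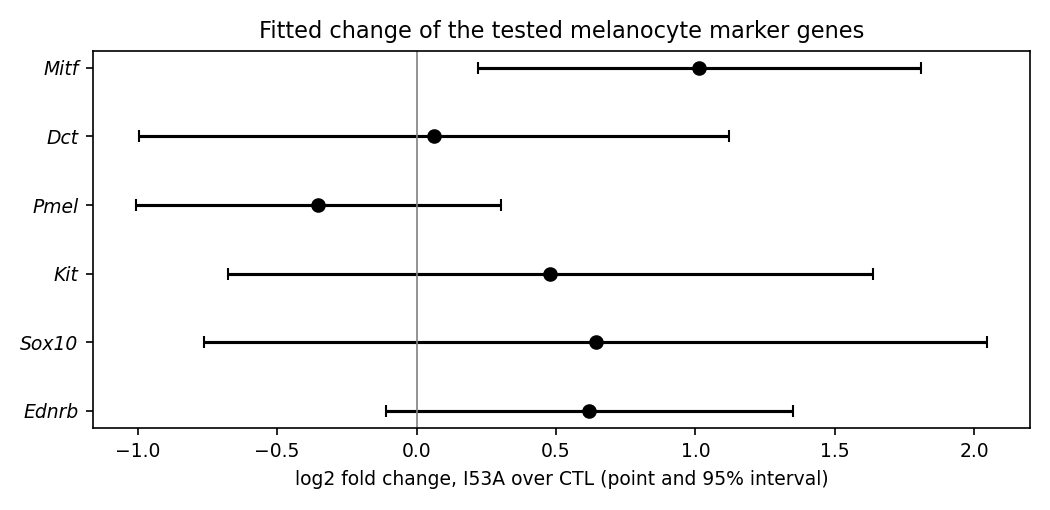
Fitted log2 fold change, I53A over CTL, of the 6 tested melanocyte marker genes (points) with a 95% interval for each gene alone (bars). The interval of Mitf, 0.22 to 1.81, lies above 0, the intervals of the other genes include 0, and no gene passed after adjustment over all tested genes.

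Per length, the genes kept nearly the same order in both groups. Levels in this paragraph are CPM per kilobase of annotated exon, as mean ± SD over n = 2 libraries. Pmel was the highest at 3.10 ± 0.0708 in I53A and 3.97 ± 0.0685 in CTL, and Ednrb followed at 2.04 ± 0.356 in I53A and 1.34 ± 0.20 in CTL. Mitf came next at 1.28 ± 0.0145 in I53A and 0.639 ± 0.17 in CTL. Kit was at 0.906 ± 0.534 in I53A and 0.634 ± 0.396 in CTL, and Sox10 at 0.819 ± 0.658 in I53A and 0.566 ± 0.0283 in CTL. Mitf, Kit and Sox10 did not differ from each other beyond their spread in either group, whereas the gaps from Pmel to Ednrb and from Ednrb to Mitf exceeded the SDs in each. Dct was at 0.408 ± 0.0888 in I53A and 0.399 ± 0.00767 in CTL. The last places were held by Tyrp1 (0.159 ± 0.0929 in I53A, 0.0865 ± 0.0561 in CTL), Tyr (0.0231 ± 0.02 in I53A, 0.121 ± 0.0653 in CTL) and Mlana (0 in I53A, 0.263 ± 0.106 in CTL). Tyr and Tyrp1 in CTL lay within each other's spread. With the length of the longest transcript in place of all exons, Dct came to 0.695 in I53A and 0.68 in CTL and stood above Sox10 in CTL (0.621). By that length Kit was at 1.54 in I53A and 1.08 in CTL and Mitf at 1.63 in I53A and 0.811 in CTL, so Kit stood above Mitf in CTL.

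**Figure D3:**
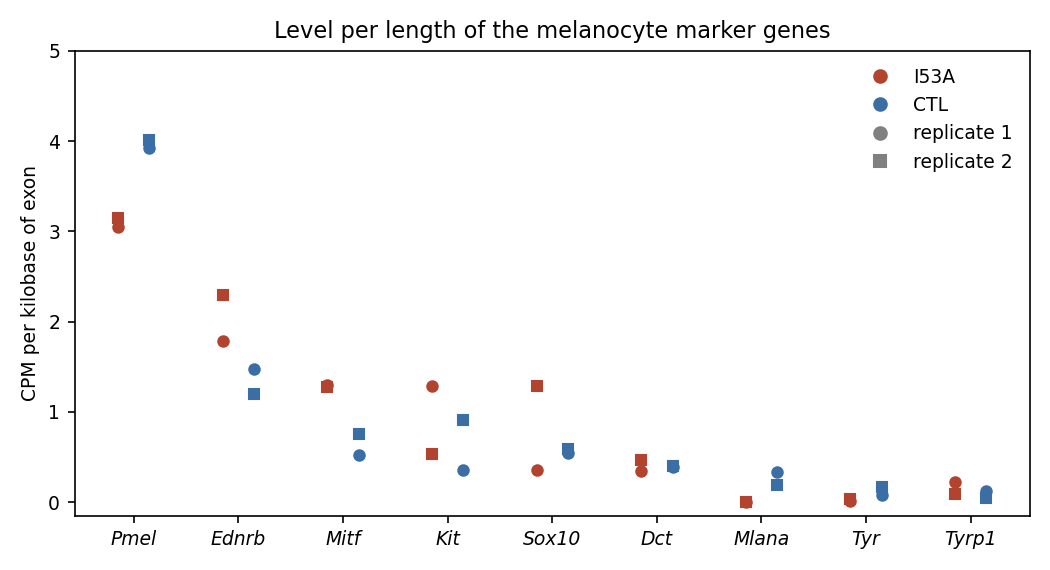
Level of the 9 melanocyte marker genes per kilobase of exon (CPM per kilobase, linear axis) in each library, ordered by the CTL mean, with I53A left of CTL for each gene, circles for replicate 1 and squares for replicate 2. Pmel is highest in every library, and Mlana, Tyr and Tyrp1 lie near 0.

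Libraries of a group differed from each other in a few of the genes, mainly Kit and Sox10. Kit was 2.43-fold higher in I53A replicate 1 than in I53A replicate 2 (180 and 107 counts, 95% exact binomial interval 1.90 to 3.11), and 2.58-fold higher in CTL replicate 2 than in CTL replicate 1 (123 and 53 counts, interval 1.86 to 3.64). Sox10 was 3.63-fold higher in I53A replicate 2 than in I53A replicate 1 (interval 2.14 to 6.50), while the CTL libraries differed by 1.07-fold (interval 0.609 to 1.89). The intervals cover counting error only, since the labels name no molecular identifiers. For smaller differences the interval left out 1 only narrowly. These were Ednrb in the I53A pair (1.28-fold, interval 1.02 to 1.61) and Mitf in the CTL pair (1.46-fold, interval 1.01 to 2.13). In all, the interval left out 1 for 3 genes in the I53A pair and 2 in the CTL pair. Each interval is for 1 gene alone, and the share of all genes with such an interval was not computed.

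Differences of over 2-fold between replicates were also seen in other genes. Of 2881 tested genes with a mean level in the range of the 6 members, 2.11 to 8.10 CPM, 11% differed by over 2-fold within the I53A pair and 8.47% within the CTL pair. Of the 6 members, 2 did so in the I53A pair (Kit and Sox10) and 1 in the CTL pair (Kit). Over the 2881 genes the median absolute log2 ratio between replicates was 0.41 in the I53A pair and 0.37 in the CTL pair.

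**Figure D4:**
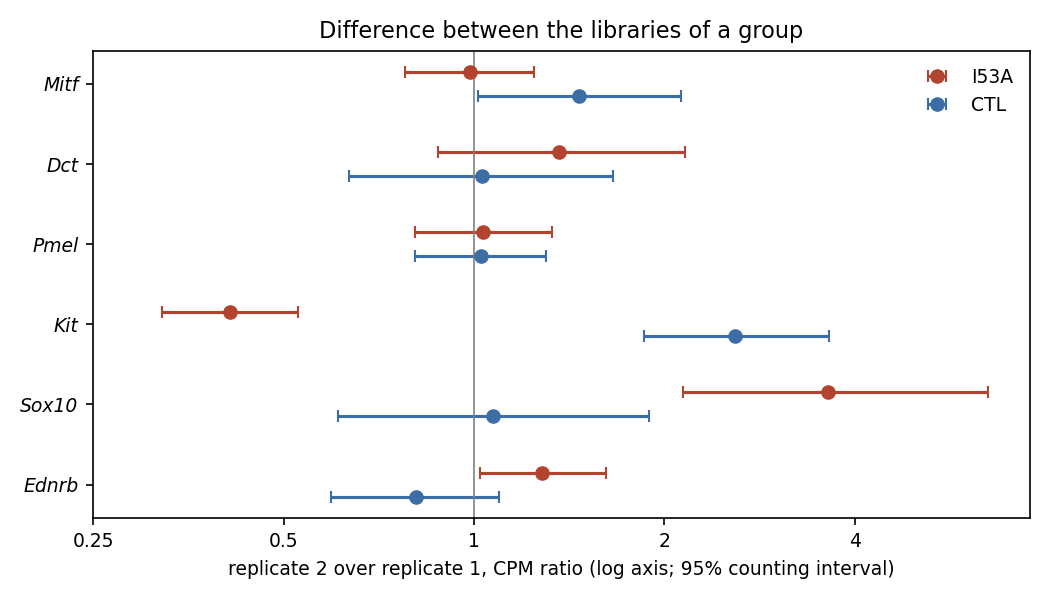
Ratio of replicate 2 over replicate 1 in CPM (log axis) for the 6 tested melanocyte marker genes, in the I53A pair (red) and the CTL pair (blue), with 95% exact binomial intervals that cover counting error only. Kit runs in opposite directions in the I53A and CTL pairs, and Sox10 is 3.63-fold higher in I53A replicate 2 than in I53A replicate 1.

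Markers of mast cells, which also carry KIT, were present in these libraries and are given here beside Kit. Of 11 mast cell markers 10 had reads and Fcer1a had none, and their summed level was 56.8 and 31.4 CPM in I53A and 28.9 and 45.7 CPM in CTL. The mast cell carboxypeptidase gene Cpa3 had 33.8 and 9.64 CPM in I53A and 12.1 and 21.4 CPM in CTL, so it was higher in the same library of each pair as Kit. Of the 10 detected markers 3 had this order in both pairs (Cpa3 and the protease genes Cma1 and Tpsb2). Among detected markers of other lists, 3 of 9 endothelial and 4 of 10 fibroblast markers had it too. So did 4 of 10 basal keratinocyte and sort markers and 4 of 12 hair follicle markers. Of melanosome biogenesis and transport genes 6 of 24 had it, and of Schwann cell and neural crest markers 4 of 18. The share over all genes was not computed. The order was held by 0 of 7 Langerhans and T cell markers and 0 of 8 Merkel cell markers. None of the 8 tested mast cell markers was called in edgeR (0 at an unadjusted p under 0.05, 0 in DESeq2, 0 in limma-voom). The shares over all tested genes were 6.71% in edgeR, 18.7% at that unadjusted p, 8.59% in DESeq2 and 5.74% in limma-voom. With the spread taken from the CTL pair alone, Cpa3 passed without I53A replicate 2 (log2 fold change 1.02, adjusted p = 0.0268), and without I53A replicate 1 its log2 fold change was -0.78 (adjusted p = 0.185). The part of mast cells in the Kit values was not tested. The other member of the list chosen by level, Srgn, a proteoglycan of secretory granules, had 5.53 and 7.44 CPM in I53A and 3.09 and 5.70 CPM in CTL.

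Schwann cells share Sox10 with melanocytes. Of 18 Schwann cell and neural crest markers, all of which had reads, 11 were higher in I53A replicate 2 than in I53A replicate 1, as Sox10 was. Among them was the neurotrophin receptor gene Ngfr (1.34 and 5.86 CPM in I53A, 0.892 and 4.24 CPM in CTL). This order of the I53A pair was not particular to the list. It was held by 6 of 10 detected mast cell markers and 6 of 9 endothelial markers. Of Langerhans and T cell markers 7 of 7 had it, and of fibroblast markers 4 of 10. The share over all genes was not computed. Ngfr was also higher in CTL replicate 2 than in CTL replicate 1, whereas the Sox10 counts of the CTL libraries differed by less than counting error. The summed level of the list was 331 and 351 CPM in I53A and 311 and 308 CPM in CTL, with L1cam and Erbb3 holding most of the reads. Of 13 tested markers 1 rose, against 5.68% of all tested genes. This was Mbp, with 31.1 and 35.8 CPM in I53A against 18.3 and 12.2 CPM in CTL (log2 fold change 1.13 ± 0.24 SE, edgeR adjusted p = 0.0169). The call of Mbp, a myelin gene that other tissues transcribe too, was lost without CTL replicate 1 (log2 fold change 1.45, adjusted p = 0.0603) and without CTL replicate 2 (0.87, adjusted p = 0.238). The part of Schwann cells in the Sox10 values was not tested.

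Endothelial cells carry EDNRB. Of 9 endothelial markers all had reads, and their summed level was 30.4 and 38.6 CPM in I53A and 16.4 and 41.9 CPM in CTL. The leading markers Cdh5 (9.22 and 15.0 CPM in I53A, 5.53 and 14.4 CPM in CTL) and Pecam1 (6.04 and 6.34 CPM in I53A, 3.39 and 8.21 CPM in CTL) were higher in replicate 2 than in replicate 1 of each group. Ednrb had the same order in the I53A pair and the other order in the CTL pair, where its difference was within counting error. The part of endothelial cells in the Ednrb values was not tested. None of 8 tested endothelial markers was called (edgeR, 0 at an unadjusted p under 0.05, 0 in DESeq2, 0 in limma-voom). Over all tested genes edgeR called 6.71%, DESeq2 8.59% and limma-voom 5.74%, and 18.7% had an unadjusted edgeR p under 0.05. With so few markers, 0 calls do not set this list apart.

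Other genes of pigment cells ranged from 0 counts in every library to 90.6 CPM in CTL replicate 1, and some are ones that other cells use as well. Of 16 genes in this list 14 had reads and 7 were tested, with none called in edgeR (2 at an unadjusted p under 0.05, 1 in DESeq2, 0 in limma-voom). Over all tested genes edgeR called 6.71%, and 18.7% reached that unadjusted p. Alternative edgeR fits called 1 gene of the list as higher with no low-count filter and 1 with the replicate number in the fit. With GC content and length offsets plus the replicate number, 1 was called as higher and 1 as lower. The lower gene was Erbb3 (log2 fold change -0.51, edgeR adjusted p = 0.0214). Oca2 and Gpr143, which encode a melanosomal transporter and a melanosomal receptor, had 0 counts in every library. Slc45a2, which encodes another melanosomal transporter, had 0 and 1 counts in I53A and 3 and 14 counts in CTL. Mc1r, the receptor for melanocyte-stimulating hormone, had 5 and 6 counts in I53A and 7 and 16 counts in CTL. Both were under the low-count filter and were picked out after their values were seen. Tested members of the list ran in both directions. Slc24a5 had 4.45 and 4.80 CPM in I53A and 3.45 and 2.52 CPM in CTL (log2 fold change 0.63 ± 0.41 SE, edgeR adjusted p = 0.479). Rab32 was also higher in I53A (0.82 ± 0.22 SE, edgeR adjusted p = 0.0592), and Gapdhs was lower (-0.76 ± 0.29 SE, edgeR adjusted p = 0.188). The list's most abundant members were Erbb3, a neuregulin receptor that keratinocytes also make (79.0 and 62.0 CPM in I53A, 90.6 and 76.0 CPM in CTL, log2 fold change -0.24 ± 0.17 SE, edgeR adjusted p = 0.539), and the channel gene Trpm1 (89.0 and 65.4 CPM in I53A, 62.7 and 57.7 CPM in CTL, 0.36 ± 0.18 SE, adjusted p = 0.343). Trpm1 passed without I53A replicate 2 (log2 fold change 0.56, adjusted p = 0.0368), in a fit whose spread came from the CTL pair alone.

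Genes for melanosome biogenesis and transport form a machinery that many cell types share for other organelles. Of 24 such genes, with a median log2 fold change of -0.05, 1 fell and none rose in edgeR, against 1.04% and 5.68% of all tested genes. DESeq2 called 1 as higher, as did edgeR with no low-count filter and edgeR with the replicate number in the fit. The gene that fell was Rab27a, which encodes the small GTPase that tethers melanosomes to the actin motor through melanophilin and also serves secretion in other cells. Rab27a had 21.4 CPM in each I53A library against 84.6 and 77.9 CPM in CTL. The I53A libraries lay far below the CTL libraries, at a log2 fold change of -1.92 ± 0.17 (SE, edgeR adjusted p = 0.000151), and the call held in all 13 alternatives. Its partners were not called. Mlph had 1.52 and 3.08 CPM in I53A and 1.84 and 0.927 CPM in CTL, and Myo5a had 317 and 317 CPM in I53A and 275 and 269 CPM in CTL.

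Transcripts of signals that melanocytes receive were present in the sorted cells. Of 12 tested genes in this list 2 rose and none fell in edgeR, against 5.68% and 1.04% of all tested genes. DESeq2 called 2 as higher and 1 as lower. With GC content and length offsets 1 was called as higher and 2 as lower, so the direction of the list depended on the processing. Nrg1, a growth factor for ERBB3 on cells of the neural crest lineage, had 26.2 and 14.7 CPM in I53A against 3.03 and 1.52 CPM in CTL (log2 fold change 3.12 ± 0.43 SE, edgeR adjusted p = 0.00175), with no overlap between groups. Without CTL replicate 1 the log2 fold change of Nrg1 was 3.73 (adjusted p = 0.0232). Ece1, the enzyme that cuts endothelin precursors to their active form, had 732 and 793 CPM in I53A against 526 and 492 CPM in CTL (log2 fold change 0.58 ± 0.14 SE, adjusted p = 0.028). The call of Ece1 was lost without CTL replicate 1 (adjusted p = 0.278), without CTL replicate 2 (0.378) and with GC content and length offsets (0.178). Kitl, the ligand of KIT, had 90.2 and 84.0 CPM in I53A and 98.5 and 97.7 CPM in CTL, and did not pass (log2 fold change -0.17 ± 0.14 SE, adjusted p = 0.617). Edn3, the ligand of EDNRB in melanoblasts, had 1.40 and 0.44 CPM in I53A and 0.654 and 0.795 CPM in CTL. The agouti gene, listed under its symbol a, had 1 count in I53A replicate 1 and 0 counts in the other libraries.

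**Figure D5:**
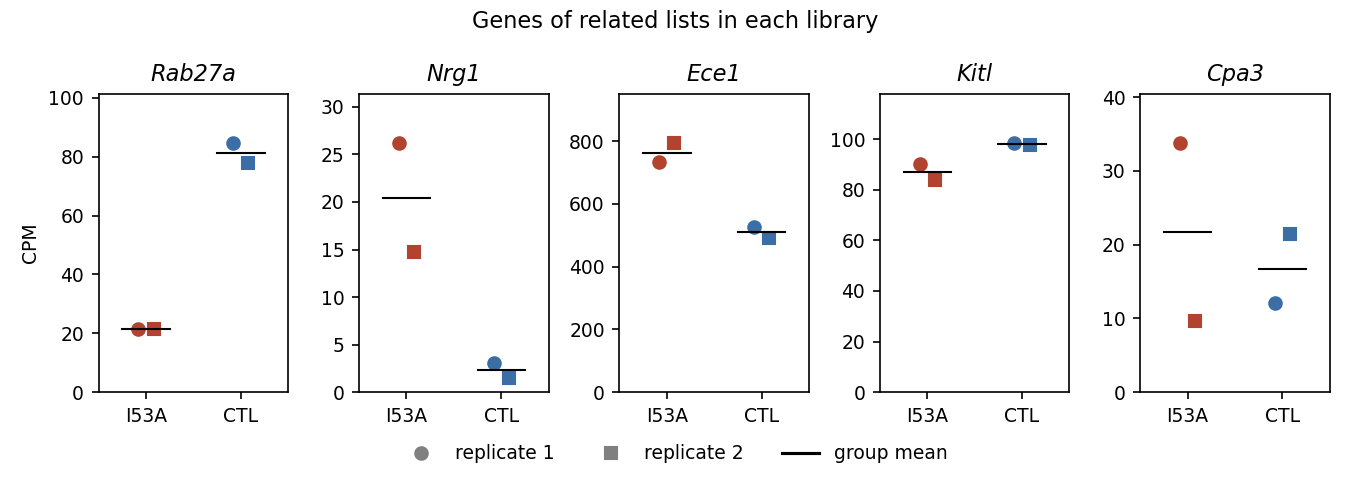
Levels in CPM (linear axes from 0 that differ between panels) of Rab27a (melanosome transport), Nrg1, Ece1 and Kitl (signals to melanocytes) and Cpa3 (mast cells), with I53A left of CTL, circles for replicate 1, squares for replicate 2 and a line at the group mean. Rab27a is near 21 CPM in both I53A libraries and near 80 CPM in both CTL libraries, and Nrg1 and Ece1 are higher in I53A without overlap.

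Other transcription factors around Mitf did not pass the test. Of 16 members of the MITF family and its regulators 12 were tested and none was called in edgeR (4 at an unadjusted p under 0.05, 2 in DESeq2, 1 in limma-voom). Over all tested genes edgeR called 6.71%, and 18.7% reached an unadjusted p under 0.05. Tfap2b, an AP-2 factor that keratinocytes also make, had 1087 and 1003 CPM in I53A against 740 and 728 CPM in CTL and stood just outside the threshold (log2 fold change 0.51 ± 0.14 SE, adjusted p = 0.054). Its adjusted p was 0.0115 with DESeq2 and 0.0321 with limma-voom. In edgeR it was 0.0863 with the replicate number in the fit (replicate block). With GC content and length offsets the log2 fold change of Tfap2b was 0.33 (edgeR adjusted p = 0.149). Tfap2a, its relative with known roles in neural crest and epidermis, had 579 and 527 CPM in I53A and 618 and 715 CPM in CTL.

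Marker lists of further cells and of the sorted cells themselves show what else the libraries held. Over all tested genes 5.68% were called as higher and 1.04% as lower in I53A. Of 10 tested fibroblast markers 2 rose, Fbn1 (140 and 164 CPM in I53A, 68.8 and 66.5 CPM in CTL, edgeR adjusted p = 0.00124) and Dcn (504 and 553 CPM in I53A, 389 and 309 CPM in CTL, adjusted p = 0.0446), and the list summed to 2243 and 2054 CPM in I53A and 1467 and 1534 CPM in CTL. The log2 fold change of Dcn, 0.60 with all libraries, was 0.77 without CTL replicate 1 (adjusted p = 0.15) and 0.44 without CTL replicate 2 (adjusted p = 0.51), and its call was lost in both. Of 12 tested markers of the hair follicle, where newborn melanocytes also reside, 2 rose and 2 fell. Those that rose were Lhx2 (84.9 and 78.5 CPM in I53A, 20.4 and 25.6 CPM in CTL, adjusted p = 0.000299) and Hoxc13 (6.74 and 11.2 CPM in I53A, 1.49 and 1.46 CPM in CTL, adjusted p = 0.00713). Those that fell were the hair protein gene Tchh (15.9 and 14.8 CPM in I53A, 56.1 and 55.8 CPM in CTL, adjusted p = 0.000278) and the inner root sheath keratin gene Krt71 (2.29 and 0.616 CPM in I53A, 4.58 and 12.7 CPM in CTL, adjusted p = 0.0369). The log2 fold change of Hoxc13, 2.63 with all libraries, was 2.63 without CTL replicate 1 (adjusted p = 0.0912) and 2.60 without CTL replicate 2 (adjusted p = 0.0802), so the call was lost with little change in the fold. The call of Krt71 was lost without CTL replicate 2 (adjusted p = 0.406), without I53A replicate 2 (0.0733) and with limma-voom (0.0816). Of 4 tested Merkel cell markers 1 rose and none fell in edgeR, and the list ran in both directions. Krt8 was lower in I53A without overlap but was not called (log2 fold change -2.403, edgeR adjusted p = 0.1107). Atoh1 was higher without overlap and was not called either (edgeR adjusted p = 0.1676). With GC content and length offsets plus the replicate block, 1 marker of this list was called as lower. The gene that rose was Piezo2 (23.7 and 18.4 CPM in I53A, 8.39 and 6.95 CPM in CTL, log2 fold change 1.44, adjusted p = 0.00924). It was 1.59 on that scale without CTL replicate 1 (adjusted p = 0.0888) and 1.32 without CTL replicate 2 (adjusted p = 0.134), where the call was lost. Of 5 tested Langerhans and T cell markers none was called (edgeR, 1 at an unadjusted p under 0.05, 1 in DESeq2, 0 in limma-voom), and their most abundant genes Cd74 and H2-Ab1 differed within each pair, at 108 and 276 CPM for Cd74 in I53A and 120 and 267 CPM in CTL, and at 41.7 and 85.1 CPM for H2-Ab1 in I53A and 39.9 and 75.6 CPM in CTL. Of 10 basal keratinocyte and sort markers 1 fell in edgeR, against 3 in DESeq2, 3 in limma-voom and 5 with GC content and length offsets, and DESeq2 called 1 as higher. The gene that fell in edgeR was Krt15 (1336 and 1734 CPM in I53A, 2907 and 2381 CPM in CTL, log2 fold change -0.78, adjusted p = 0.0254). Its log2 fold change was -0.63 without CTL replicate 1 (adjusted p = 0.389) and -0.92 without CTL replicate 2 (adjusted p = 0.134), where the call was lost. The part of these cells in the values of the 9 genes was not tested.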

How the data were processed

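Each table deposited by the authors holds raw counts of reads per gene symbol for 1 library. The build mm10 and the tools DESeq2 1.6.3, HTSeq 0.6.1, TopHat2 2.0.13 and Cufflinks 2.2.1 are listed in the submitters' processing notes. Which of them counted, with which annotation and strand setting, is not given in the sources used here. Per the labels' protocols, 10 ng of RNA was amplified before library construction, so counts are not molecules. Genes passing filterByExpr (minimum count 10, minimum total 15) were scaled by TMM and tested in edgeR 4.0.16 (R 4.3.3) by the quasi-likelihood test, two-sided, Benjamini-Hochberg adjusted over 14550 genes, threshold 0.05. Tyr, Tyrp1 and Mlana were under this filter. Positions and lengths came from GENCODE M21 (97.3% of symbols matched). On simulated counts for this comparison (14550 genes, 50 changed at each size), 2%, 60%, 88% and 92% of 1.5-, 2-, 4- and 8-fold changes were recovered. The simulated fit made 10 false calls. These rates are not split by level, and the 6 tested members had mean levels of 2.11 to 8.10 CPM.

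Groups and replicate numbers came from the labels. The members and gene lists were chosen with earlier results of these data known. Named genes were the members, Ring1, Rnf2, up to 4 called members of each other list or else its 2 most abundant tested members; others were chosen after their values were seen. Genes of like pattern were to be named only if the summed members differed by at least 2-fold between libraries; the ratio was 1.41. Alternatives included DESeq2 1.42.0 and limma 3.58.1 (voom).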

Additional observations from a re-analysis of the deposited data

How the results depend on the processing

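None of the 6 tested melanocyte marker genes was called in any of the 13 alternatives, and Tyr, Tyrp1 and Mlana, tested in 1 of them (no low-count filter), were not called there; the lowest adjusted p was 0.0936, for Mitf with GC content and length offsets plus the replicate block. Over the alternatives the log2 fold change ranged from 0.76 to 1.30 for Mitf (adjusted p 0.0936 to 0.642), from 0.41 to 0.78 for Ednrb, from -0.48 to -0.32 for Pmel, from -0.23 to 1.33 for Kit, from -0.67 to 1.19 for Sox10 and from -0.21 to 0.25 for Dct. Over all tested genes 826 were higher and 151 lower; the lower count was 232 with DESeq2, 232 with the replicate block, 716 with GC content and length offsets (731 higher, with a median over all genes of -0.14 on the log2 scale, against -0.01 without offsets) and 1284 with the offsets plus the replicate block (1064 higher). Leaving out 1 library gave 258 to 1131 higher and 34 to 389 lower genes, with 258 and 39 without CTL replicate 1, 292 and 34 without CTL replicate 2, 1122 and 367 without I53A replicate 1, and 1131 and 389 without I53A replicate 2. Same-numbered libraries deviated together at a correlation of 0.0409 over 14550 genes, and the labels do not pair them. For the fold changes of named genes, 364 alternative values kept their side of the threshold, 17 lost it and 9 gained it. Depth limits the rarest genes: Tyr, Tyrp1 and Mlana rest on at most 18 counts per library.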
